A study of Mus musculus with 6 samples.

Results

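Pericytes and vascular smooth muscle cells, together called mural cells, wrap the outside of endothelial tubes. Values of 8 genes widely used to mark them (Rgs5, Pde5a, Abcc9, Kcnj8, Mcam, Cspg4, Notch3 and Des) were read from tissue on either side of the mouse aorta, out of 24973 probe sets. The 8 were picked by gene symbol with the ventral against dorsal comparison of these same arrays already known, so their differences between the tissues are a description and not an independent test. All 8 had a probe set, and all 8 had a mean over the arrays above the brightness level used for testing (4.52 on the log2 scale, the median of all probe sets), which left 12028 named genes. Ventral tissue lay directly beneath the dorsal aorta, and dorsal tissue lay between its roof and the notochord. Both were cut by laser microdissection from unfixed frozen sections of C57Bl/6 embryos at embryonic day 11.5, when hematopoietic stem cells arise in this region, with no transgene or treatment in either group. Each tissue was profiled on 3 arrays, numbered as biological replicates 1 to 3, and the labels state that the tissues came from the same embryos without saying that a number marks an embryo. The series concerns the tissue below the aorta as a niche of these stem cells, and the comparison asks how the sides differ in the genes of mural cells. Nothing says how many embryos or sections went into an array.

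Mural cells are recruited to new vessels by platelet-derived growth factor from the endothelium, which acts on the receptor Pdgfrb, and their maturation depends on Notch signals received through Notch3. Their tone is set by G-protein-coupled receptors, by potassium channels that hold the membrane polarised, and by cyclic GMP made in answer to nitric oxide. None of the 8 genes is exclusive to mural cells. Des also marks skeletal and cardiac muscle, Mcam is also made by endothelium, Cspg4 is also made by glial and cartilage precursors, and Rgs5, Kcnj8 and Abcc9 have been used to tell pericytes from other perivascular cells mainly in older tissues. The arrays average all cells of a cut, so that fewer cells of a type and less RNA per cell cannot be told apart.

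The start regions of 4 of the genes are shown, namely those of the pair with the greatest differences, Rgs5 and Pde5a, and of the adjacent pair Kcnj8 and Abcc9, which encode the subunits of 1 channel. Each runs from 250 bases before to 50 bases after the annotated start, in RefSeq sequence of the build GRCm38.p6, and capitals mark CAGCTG, an E-box bound by basic helix-loop-helix factors, and TGGGAA, the core of the site of the Notch effector Rbpj. The regions are chr1:169655251-169655550, plus strand for Rgs5, chr3:122728908-122729207, plus strand for Pde5a, chr6:142571565-142571864, minus strand for Kcnj8 and chr6:142702225-142702524, minus strand for Abcc9.
Rgs5: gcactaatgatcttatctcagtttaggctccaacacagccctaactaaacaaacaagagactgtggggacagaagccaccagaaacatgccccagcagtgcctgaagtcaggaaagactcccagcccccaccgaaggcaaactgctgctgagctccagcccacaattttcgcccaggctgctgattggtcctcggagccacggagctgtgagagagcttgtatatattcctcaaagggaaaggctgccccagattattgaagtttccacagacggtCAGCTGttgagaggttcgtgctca
Pde5a: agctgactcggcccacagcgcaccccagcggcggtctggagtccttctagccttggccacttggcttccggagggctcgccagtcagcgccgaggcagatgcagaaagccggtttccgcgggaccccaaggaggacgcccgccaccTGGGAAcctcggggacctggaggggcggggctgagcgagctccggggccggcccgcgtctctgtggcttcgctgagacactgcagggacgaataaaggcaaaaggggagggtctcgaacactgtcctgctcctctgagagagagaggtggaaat
Kcnj8: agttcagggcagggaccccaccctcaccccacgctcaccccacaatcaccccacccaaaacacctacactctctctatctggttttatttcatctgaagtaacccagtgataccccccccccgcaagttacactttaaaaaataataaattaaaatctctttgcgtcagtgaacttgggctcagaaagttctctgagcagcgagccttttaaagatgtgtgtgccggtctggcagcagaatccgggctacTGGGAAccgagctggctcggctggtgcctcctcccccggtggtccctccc
Abcc9: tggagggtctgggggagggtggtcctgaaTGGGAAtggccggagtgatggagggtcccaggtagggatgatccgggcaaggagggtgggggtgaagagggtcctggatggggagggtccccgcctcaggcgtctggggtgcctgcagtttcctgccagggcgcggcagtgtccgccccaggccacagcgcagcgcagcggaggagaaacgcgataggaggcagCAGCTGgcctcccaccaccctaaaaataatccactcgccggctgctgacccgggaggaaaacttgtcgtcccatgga

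All 8 genes matched a promoter in the table. Searched on both strands, TGGGAA occurred in 3 of the 8 promoters (Kcnj8, where it begins at the annotated start, Abcc9 and Pde5a) and in 25.6% of all 32851 promoters of this length. CAGCTG occurred in 3 of 8 (Rgs5, Abcc9 and Des) and in 16.3% of all promoters. The GC box GGGCGG occurred in 6 of 8, in all but Rgs5 and Kcnj8, and in 35.7% of all. The CArG box, the site of serum response factor in contractile genes, had 0 matches among the 8, against 1.63% of all promoters, and TATAAA had 0, against 13.6%. The Rgs5 and Kcnj8 promoters had 52.3% and 53.3% G or C, close to the median of all promoters (52.7%), whereas the other 6 ran from 60.0% in Cspg4 to 72.7% in Mcam. A match here is a run of letters in a short window and not a shown binding site.

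Rgs5, Pde5a, Des and Abcc9 had every ventral array above every dorsal array, while Kcnj8, Mcam, Cspg4 and Notch3 overlapped between the tissues. In limma with the replicate number as a block, 2 of the 8 genes, Rgs5 and Pde5a, passed an adjusted p of 0.05 over all genes tested, both higher in ventral tissue, against 0.515% of all genes in either direction and 0.308% higher in ventral tissue. Without the block Pde5a alone passed, against 0.299% of all genes higher in ventral tissue. Of the 8, 7 had a positive and 1 a negative log2 difference, ventral minus dorsal, with a median of 0.73 beside −0.01 for all genes tested. Ventral arrays all above dorsal arrays were found in 4 of the 8 genes and in 7.5% of all genes tested, and a higher ventral value in all 3 same-numbered pairs in 5 of the 8 and in 15.3% of all. As the genes were chosen with this comparison known, nothing follows from these counts.

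**Figure D1:**
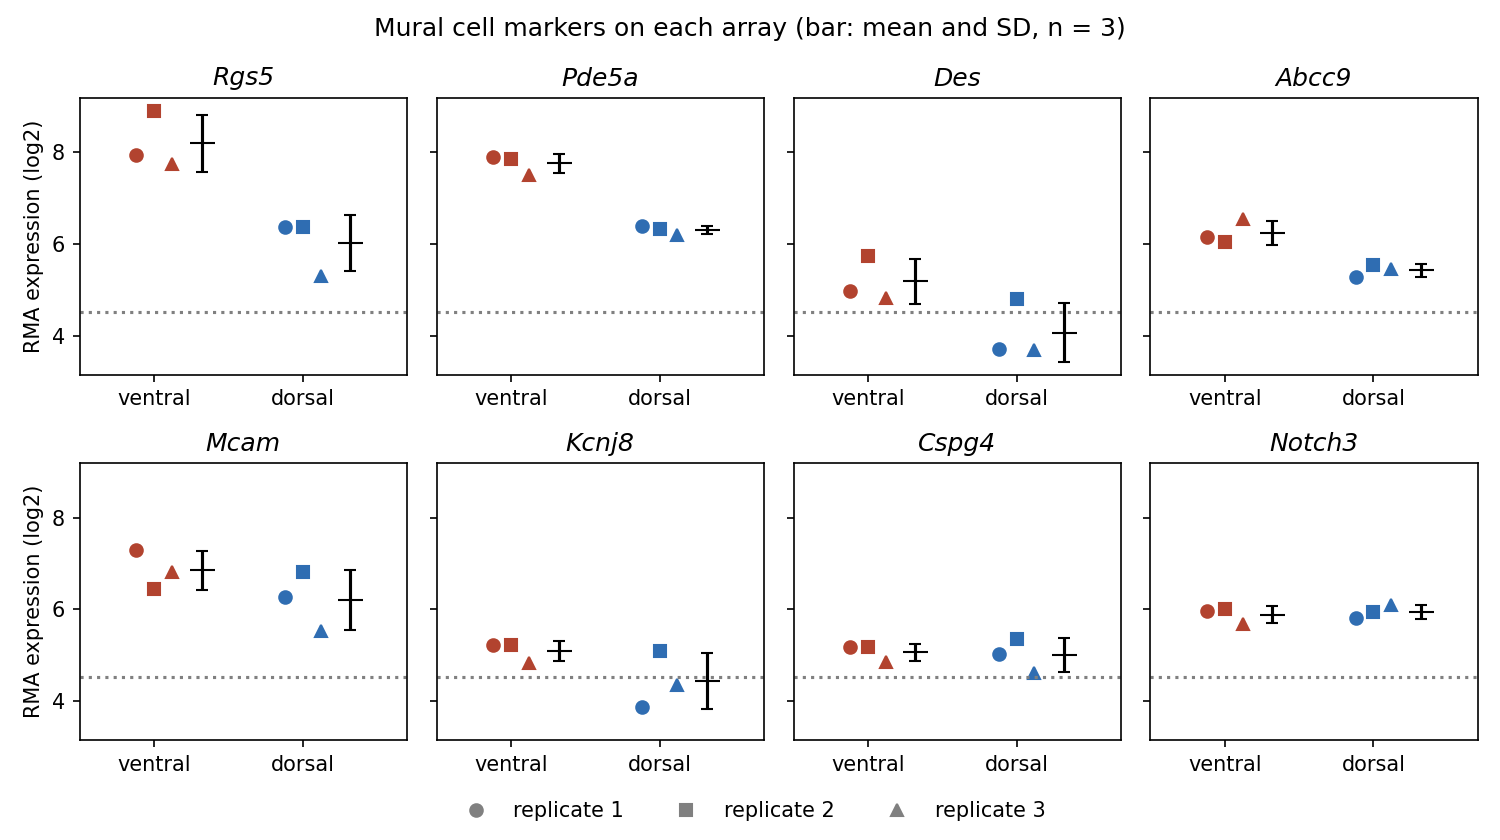
RMA expression level (log2, y axis) of each gene on the 3 ventral (red) and 3 dorsal (blue) arrays, with marker shapes for the replicate numbers, black bars for mean and SD, and a dotted line at the brightness level of 4.52. Rgs5 and Pde5a show the widest gaps between the tissues, and Cspg4 and Notch3 lie on top of each other.

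The signalling regulators Rgs5 and Pde5a stood farthest apart. Rgs5 switches off G-protein signals by speeding GTP hydrolysis on the alpha subunit. Its level was 7.94, 8.91 and 7.75 on ventral arrays 1 to 3 and 6.37, 6.37 and 5.31 on dorsal arrays 1 to 3. The lowest ventral array was 1.37 (log2) above the highest dorsal arrays, and ventral 2 stood above the other ventral arrays as dorsal 3 stood below the other dorsal ones. The dorsal 1 and dorsal 2 levels were identical to the last deposited digit, as were 27 of the 24973 values of these 2 arrays, within the 13 to 36 shared values found for the 15 array pairs. The mean was 8.20 ± 0.62 in ventral and 6.02 ± 0.62 in dorsal tissue (SD, n = 3 each), a log2 difference of 2.18 ± 0.24 (SE) or 4.53-fold, which ranked 22 among 12028 genes ordered from the highest ventral excess. Its limma adjusted p was 0.0258. It was 0.0732 without the block, where the SE was 0.39, and 0.0675 without the pair of replicate 3, so that the call rests on both.

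Pde5a is the phosphodiesterase that breaks down cyclic GMP and so ends the relaxing signal of nitric oxide in vascular muscle. It had levels of 7.90, 7.86 and 7.51 on ventral arrays and 6.38, 6.32 and 6.20 on dorsal arrays. The 3 arrays of each tissue lay close together, and the gap between the tissues was 1.13. The mean was 7.76 ± 0.21 in ventral and 6.30 ± 0.09 in dorsal tissue (SD, n = 3 each), a log2 difference of 1.46 ± 0.17 or 2.75-fold, with pair differences of 1.52, 1.55 and 1.31. The limma adjusted p was 0.0322 with the block and 0.0174 without it. It did not pass once the pair of replicate 1 (0.0668), 2 (0.0841) or 3 (0.0725) was left out, although the difference itself stayed between 1.42 and 1.53. Without the brightness filter neither Pde5a (0.0816) nor Rgs5 (0.106) passed.

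The ATP-sensitive potassium channel of vascular muscle and pericytes joins the pore subunit encoded by Kcnj8 with the sulfonylurea receptor encoded by Abcc9, and opening it relaxes the cell. Abcc9 had levels of 6.14, 6.04 and 6.54 on ventral and 5.27, 5.54 and 5.45 on dorsal arrays. The tissues did not overlap, with a gap of 0.49, and the log2 difference was 0.81 ± 0.19 (1.76-fold), which did not pass (adjusted p = 0.189). Kcnj8 had levels of 5.21, 5.21 and 4.82 on ventral and 3.86, 5.08 and 4.34 on dorsal arrays. Dorsal 2 lay above ventral 3, so the tissues overlapped, and dorsal arrays 1 and 3 were below the brightness level, where arrays compress differences. The log2 difference of Kcnj8 was 0.65 ± 0.26 (adjusted p = 0.453), and it was 0.30 without the pair of replicate 1, which alone had a pair difference of 1.34. The 2 genes lie next to each other in the RefSeq gene order. The coding genes on either side of the pair had log2 differences of −0.19 ± 0.17 for Ldhb, a lactate dehydrogenase subunit, and 0.01 ± 0.21 for Cmas, an enzyme of sialic acid metabolism. The related channel of pancreatic beta cells and neurons joins Kcnj11, whose log2 difference was 0.09 ± 0.18, with Abcc8, which was below the brightness level in both tissues (4.42 in ventral and 4.38 in dorsal tissue).

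Des encodes desmin, the intermediate filament of muscle cells. It had levels of 4.97, 5.74 and 4.82 on ventral and 3.70, 4.80 and 3.68 on dorsal arrays. Replicate 2 was the highest array of each tissue, and the lowest ventral array exceeded dorsal 2 by only 0.02. Within same-numbered pairs the differences were 1.28, 0.94 and 1.15, and the log2 difference was 1.12 ± 0.18 with the block (2.17-fold, adjusted p = 0.0721) and carried an SE of 0.36 without it (adjusted p = 0.335). The dorsal mean of 4.06 is below the brightness level, so Des was tested only because its ventral values lifted the mean over the arrays, and the fold gives no exact ratio of transcript. Of 7 other tested intermediate filament genes none passed in limma (1 had an unadjusted p under 0.05, as had 10.7% of all genes tested), and the log2 differences ran from −0.31 (Nes, nestin) to 1.01 (Krt18, an epithelial keratin), with Vim, vimentin, at 0.47 ± 0.24. The genes on either side of Des had differences of 0.53 ± 0.23 (Dnpep) and 0.52 ± 0.17 (Speg, a kinase of striated muscle), neither of them passing.

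The surface proteins Mcam and Cspg4 overlapped between the tissues. Mcam, an adhesion molecule of mural and endothelial cells, had levels of 7.29, 6.44 and 6.80 on ventral and 6.26, 6.82 and 5.52 on dorsal arrays. Replicates 1 and 3 were higher in ventral tissue by 1.04 and 1.29, and replicate 2 was the other way round (−0.38). The log2 difference was 0.65 ± 0.33 (95% interval −0.16 to 1.46, adjusted p = 0.567), 1.16 without the pair of replicate 2 and 0.33 without that of replicate 3, passing in neither case. Cspg4, the proteoglycan NG2 of pericytes, had levels of 5.17, 5.17 and 4.84 on ventral and 5.02, 5.34 and 4.61 on dorsal arrays. Its log2 difference was 0.07 ± 0.18, with an interval of −0.37 to 0.51. Among 10 tested partners of these proteins, the laminin chain gene Lama4, which encodes a ligand of Mcam, had a difference of 0.52 ± 0.19, Col6a1, a chain of the collagen that binds Cspg4, 0.50 ± 0.18, and the integrin subunit gene Itga3 0.80 ± 0.22, with 8 of 10 positive, 3 with an unadjusted p under 0.05 in limma (10.7% of all genes tested) and none passing.

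Notch3, the Notch receptor of mural cells, was the gene with a negative value. It had levels of 5.95, 6.01 and 5.67 on ventral and 5.80, 5.94 and 6.09 on dorsal arrays. The ranges of the tissues overlapped, and the log2 difference was −0.06 ± 0.20 with an interval of −0.53 to 0.41. The upper end of that interval is below the lower ends for Rgs5 (1.60) and Pde5a (1.04), but differences between genes were not tested.

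**Figure D2:**
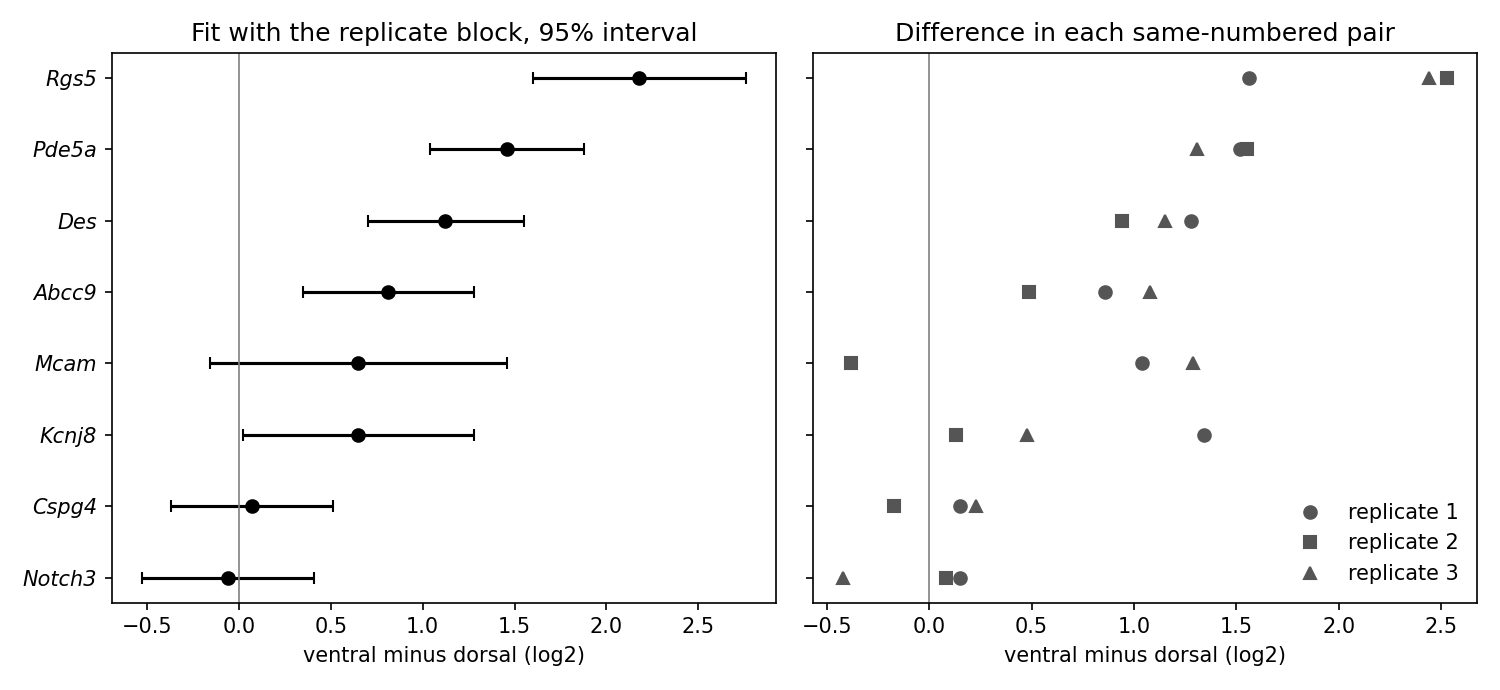
Ventral minus dorsal difference (log2, x axis) of each gene, from the blocked limma fit with its 95% interval on the left and in each same-numbered pair of arrays on the right. The 3 pairs of Pde5a lie between 1.31 and 1.55, and the replicate 2 pair of Mcam lies at −0.38 against 1.04 and 1.29 in the other pairs.

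The genes around these 8 in the same pathways were compared next, in lists drawn up with earlier results of these arrays known. In the list of nitric oxide and cyclic GMP genes, 11 of 12 tested genes had positive differences, with a median of 0.42 (−0.01 for all genes tested), 4 had an unadjusted p under 0.05 in limma (10.7% of all genes tested) and none passed after adjustment. Gucy1a1, a subunit of the soluble guanylate cyclase that makes cyclic GMP on binding nitric oxide, had levels of 6.57, 6.71 and 5.91 on ventral and 4.32, 5.40 and 5.02 on dorsal arrays, with no overlap and a log2 difference of 1.48 ± 0.28 (adjusted p = 0.117). Its partner subunit Gucy1b1 had a difference of 0.69 ± 0.33, held by ventral arrays 2 and 3 (6.31 and 6.17), while ventral 1 (4.87) was below all 3 dorsal arrays (5.01 to 5.18). Npr1, the membrane guanylate cyclase for atrial natriuretic peptide, had a difference of 1.00 ± 0.19 (adjusted p = 0.118), but its dorsal arrays (4.18 to 4.24) were all below the brightness level, so that this is no exact ratio. Pde3a, a phosphodiesterase inhibited by cyclic GMP, had one of 0.97 ± 0.25 (adjusted p = 0.216). The cyclic GMP-dependent kinase gene Prkg1 had 0.32 ± 0.19, and Nos3, the endothelial nitric oxide synthase, was below the brightness level in both tissues (4.36 in ventral and 4.31 in dorsal tissue). Pde1a, a calcium-dependent phosphodiesterase, was left out of the test because its mean over the 6 arrays was below the brightness level. It read 3.54, 6.35 and 7.23 on ventral and 3.05, 3.23 and 3.28 on dorsal arrays, so that ventral 2 and 3 stood far above the rest.

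The wider set of mural markers was split in sign. Of 22 listed genes 16 were tested and 0 passed limma's adjusted threshold, with or without the block, while 3 had an unadjusted p under 0.05 (10.7% of all genes tested had). In this list 7 genes had positive and 9 negative differences, and the median was −0.17. Pdgfrb, the receptor for the recruiting growth factor, had levels of 8.17, 7.36 and 7.53 on ventral and 6.93, 7.27 and 6.84 on dorsal arrays, with all ventral arrays above the dorsal ones and a difference of 0.67 ± 0.25 (adjusted p = 0.411). Gucy1a1, described above, also stands in this list and had its highest value, 1.48 ± 0.28, and Gucy1b1 of the list had 0.69 ± 0.33. Ebf1, a transcription factor of several mesenchymal and blood lineages, had the lowest value, −1.19 ± 0.18 (limma adjusted p = 0.0677). Without the block its SE was 0.31 and its adjusted p 0.218. Tbx18, a transcription factor of mural and other mesenchymal cells, had −0.42 ± 0.19. Anpep, a peptidase on the surface of pericytes, had −0.14 ± 0.20, and Vtn, vitronectin, −0.20 ± 0.20. Higd1b, Kcne4, Itga7, Steap4, Aoc3 and Plxdc1 had means over the 6 arrays below the brightness level. The data therefore do not show the markers of pericytes higher in ventral tissue as a class, and the 8 genes are named here as genes, not as a measure of pericytes.

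Rgs4 is a further pericyte marker that lies next to Rgs5 in the gene order and belongs to the same subfamily. It had levels of 4.85, 4.09 and 5.22 on ventral and 5.81, 6.74 and 4.72 on dorsal arrays, a difference of −1.03 ± 0.53 (adjusted p = 0.567), opposite in sign to that of Rgs5. Its tissues overlapped, since dorsal 3 was below ventral arrays 1 and 3. Of the 9 listed relatives of Rgs5 in this subfamily, 4 were above the brightness level, and the others of these, Rgs2, Rgs3 and Rgs16, had differences of −0.08 ± 0.21, 0.22 ± 0.20 and 0.23 ± 0.61. On the other side of Rgs5, the kinetochore gene Nuf2 had −0.16 ± 0.18.

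Contractile smooth muscle genes had a median difference of 0.61, with 12 of 14 tested genes positive, 7 with an unadjusted p under 0.05 in limma, against 10.7% of all genes tested, and none passing. With a pair left out some did pass, Cnn1 without replicate 1 (adjusted p = 0.0290) and Cnn1 (0.0383) and Actg2 (0.00371) without replicate 2. The greatest differences were in Cnn1, calponin (2.79 ± 0.50, adjusted p = 0.100), Actg2, an enteric smooth muscle actin (2.30 ± 0.54), and Acta2, the vascular smooth muscle actin (1.47 ± 0.34). Their SDs over ventral arrays, 1.51, 1.17 and 1.39, were above the 0.21 of Pde5a, and ventral 1 was highest for each (9.82, 9.92 and 9.85). Myh11, the myosin of mature smooth muscle, read 6.84 on ventral 1 and 5.06 and 4.38 on the other ventral arrays, against 4.46 to 4.79 on dorsal arrays. The 8 mural markers did not share this order of the ventral arrays, since ventral 1 was the highest ventral array for Mcam and Pde5a only.

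Among 15 tested signals of mural recruitment, 13 had positive differences, 8 had an unadjusted p under 0.05 in limma (10.7% of all genes tested) and none passed after adjustment. Tgfb2, a growth factor that drives smooth muscle differentiation, had 1.30 ± 0.25 (adjusted p = 0.118), Angpt2, an endothelial ligand that loosens mural cells, 0.99 ± 0.36, and S1pr1, an endothelial lipid receptor needed for mural coverage, 0.66 ± 0.19, with a dorsal mean (4.48) just below the brightness level. Pdgfb, the ligand that recruits mural cells, was below the brightness level (4.35 in ventral and 4.20 in dorsal tissue). In the Notch list 3 of 11 genes were positive, the median was −0.07, 2 had an unadjusted p under 0.05 in limma (10.7% of all genes tested) and none passed after adjustment. Jag1, a ligand of Notch3, had −0.05 ± 0.32, and the target gene Heyl, which is expressed in mural cells, 0.04 ± 0.35, near the value of Notch3 itself. The target Hey2, also an arterial endothelial gene, had 0.90 ± 0.25 (limma adjusted p = 0.257), with every ventral array above every dorsal array (7.5% of all genes tested). Other genes of the list went the other way, with −0.50 ± 0.21 for Hes1, −0.40 ± 0.19 for Nrarp and −0.34 ± 0.27 for Hey1. For 2 of these, Hes1 and Nrarp, every dorsal array was above every ventral array (7.88% of all genes tested).

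**Figure D3:**
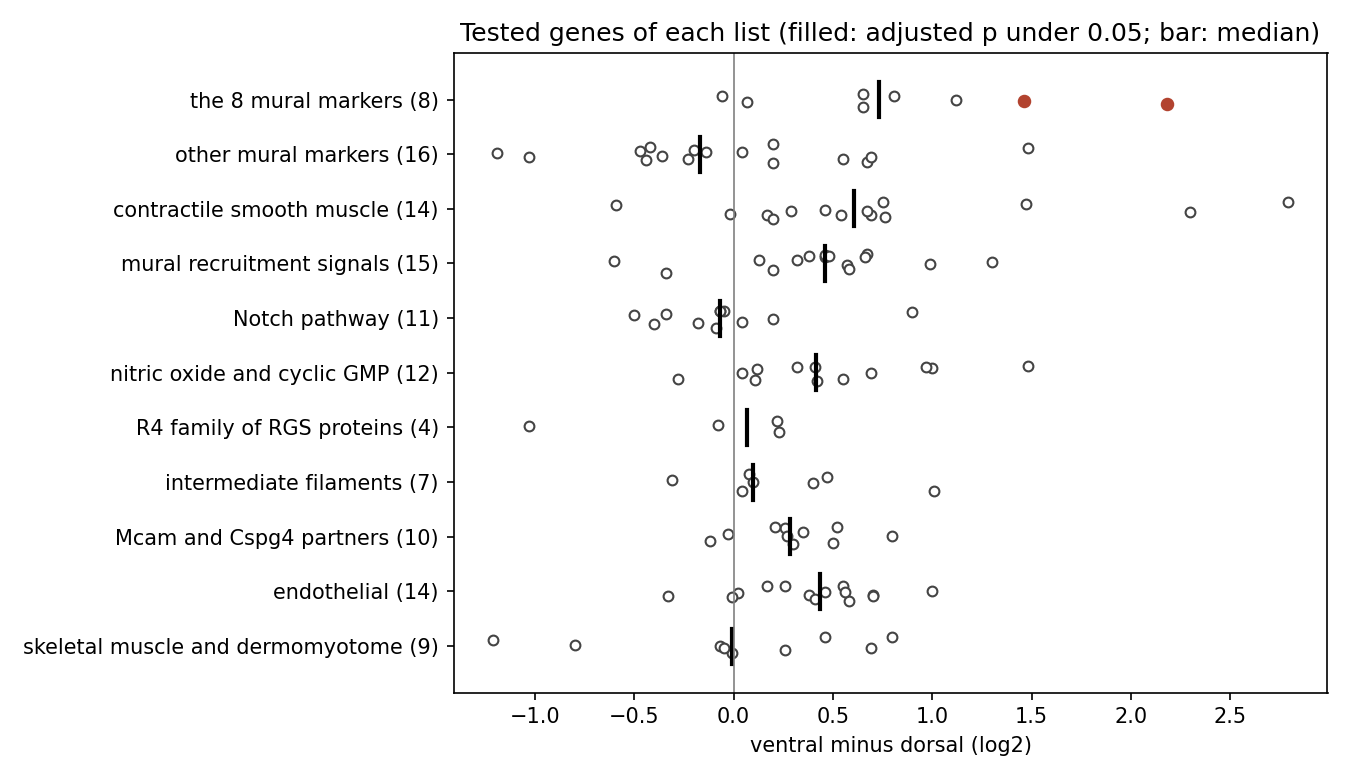
Ventral minus dorsal difference (log2, x axis) of every tested gene in the 8 mural markers and 10 of the other lists (number of genes in brackets), with filled points for genes past an adjusted p of 0.05 and a bar at the median. In the lists drawn, the filled points are Rgs5 at 2.18 and Pde5a at 1.46. Some genes stand in more than 1 list.

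The 8 markers also varied among arrays of 1 tissue. Centred on the 6-array mean of each gene and averaged over the 8, the level was 0.47, 0.57 and 0.25 on ventral arrays 1 to 3 and −0.52, −0.07 and −0.70 on dorsal arrays 1 to 3. Dorsal 2 was the highest dorsal array for 6 of the 8 genes, a tie in Rgs5 included, and dorsal 3 the lowest for 5. Ventral 3 was the lowest ventral array for 6 of the 8, all but Mcam and Abcc9.

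Markers of other cell types were read on the same arrays. The mean level of endothelial genes, of which 14 of 15 were above the brightness level, was −0.09, 0.30 and 0.37 on ventral and −0.48, 0.20 and −0.30 on dorsal arrays, so dorsal 2 was the highest dorsal array there too and lay above ventral 1. Of these genes 12 of 14 had positive differences, with a median of 0.43. In limma 4 had an unadjusted p under 0.05 (10.7% of all genes tested) and none passed. Kdr, a receptor for vascular endothelial growth factor, had a difference of 1.00 ± 0.20 (limma adjusted p = 0.121). All 3 of Pecam1, Kdr and Cldn5 were above the brightness level on every array, and Mcam shares the order of the dorsal arrays with Pecam1 (5.59, 6.84 and 5.98) only in that dorsal 2 is highest. The macrophage genes, 10 of 10 above the level, showed 0.33, 0.22 and 0.03 on ventral and −0.14, 0.08 and −0.53 on dorsal arrays. All 10 had positive differences, with a median of 0.37. In limma 3 of them had an unadjusted p under 0.05 (10.7% of all genes tested) and none passed. Contractile genes, 14 of 16 above the level, ran at 0.90, 0.26 and −0.04 on ventral and −0.33, −0.09 and −0.70 on dorsal arrays, with ventral 3 just above dorsal 2. The erythroid genes, 8 tested of 10 listed, all had negative differences with a median of −0.49. For 5 of them every dorsal array was above every ventral array (7.88% of all genes tested). In limma 5 of the erythroid genes had an unadjusted p under 0.05 (10.7% of all genes tested) and none of them passed. Their mean level was −0.42, −0.06 and −0.30 on ventral and 0.38, 0.19 and 0.21 on dorsal arrays. The mean level of the sympathoadrenal genes, 7 tested of 10, overlapped between the tissues. It was −1.22, 0.15 and 0.35 on ventral and 0.77, 0.65 and −0.70 on dorsal arrays. Of these genes 2 had positive and 5 negative differences. Every ventral array was above every dorsal array for 1 of them, Hand2 (7.5% of all genes tested). In limma 1 sympathoadrenal gene had an unadjusted p under 0.05 (10.7% of all genes tested) and none passed. The part of these cells in the levels of the 8 markers was not tested.

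The skeletal muscle and dermomyotome list, which bears on Des, had 9 of 17 genes above the brightness level and a median difference of −0.01. In this list 1 gene had an unadjusted p under 0.05 in limma (10.7% of all genes tested) and none passed. Its mean level was 0.45, −0.05 and −0.39 on ventral and −0.32, −0.09 and 0.40 on dorsal arrays. The part of skeletal muscle in the Des signal was not tested. Mylpf, a myosin light chain gene of skeletal muscle, had a difference of −1.21 ± 0.52 (limma adjusted p = 0.477). It passed as lower in ventral tissue without replicate 1 (−2.06, adjusted p = 0.0357). Its ventral mean of 4.09 was below the brightness level, with ventral 2 and 3 at 3.42 and 3.27. Mylpf was thus tested only because its dorsal values lifted the mean over the arrays, and its difference gives no exact ratio. The muscle determination gene Myod1 was below the brightness level in ventral tissue (4.35) and close to it in dorsal tissue (4.56), and Ckm, Ttn and Myh3 were below it in both. In the sclerotome and cartilage list, whose cells can make Cspg4, 10 of 11 tested genes had negative differences and Pax1, Col2a1 and Chad passed as higher in dorsal tissue, as did 0.208% of all genes tested. Chad had a ventral mean of 3.75, below the brightness level, and was tested only through its dorsal arrays. Col2a1 did not pass without replicate 1 (adjusted p = 0.0513) or 2 (0.0557). Of 5 tested neural crest and Schwann precursor genes all were negative. In limma 1 of them had an unadjusted p under 0.05 (10.7% of all genes tested) and none passed. The lowest was Fabp7 (−1.93 ± 0.82), with 6.63, 6.77 and 6.11 on ventral and 6.41, 8.13 and 10.75 on dorsal arrays, and −0.57 without replicate 3. Tfap2b had −1.58 ± 0.32 (limma adjusted p = 0.136), Erbb3 −0.31 ± 0.31 and Foxd3 −0.10 ± 0.26. Tfap2a had −0.50 ± 0.21, with a ventral mean (4.34) below the brightness level. Of 10 tested genes of visceral and gonadal mesenchyme, Tcf21, Gata6, Hlx and Zfpm2 passed as higher in ventral tissue, against 0.308% of all genes tested. Tcf21 had a dorsal mean of 3.95, below the brightness level, and was tested only through its ventral arrays. Foxf1 of the same list had a difference of −1.71 ± 0.72 (adjusted p = 0.468), and −0.57 without replicate 1. The matrix gene Dcn passed as higher in ventral tissue among 9 fibroblast genes (2.14 ± 0.26), against 0.308% of all genes tested. Without replicate 3 Dcn did not pass (limma adjusted p = 0.0504).

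**Figure D4:**
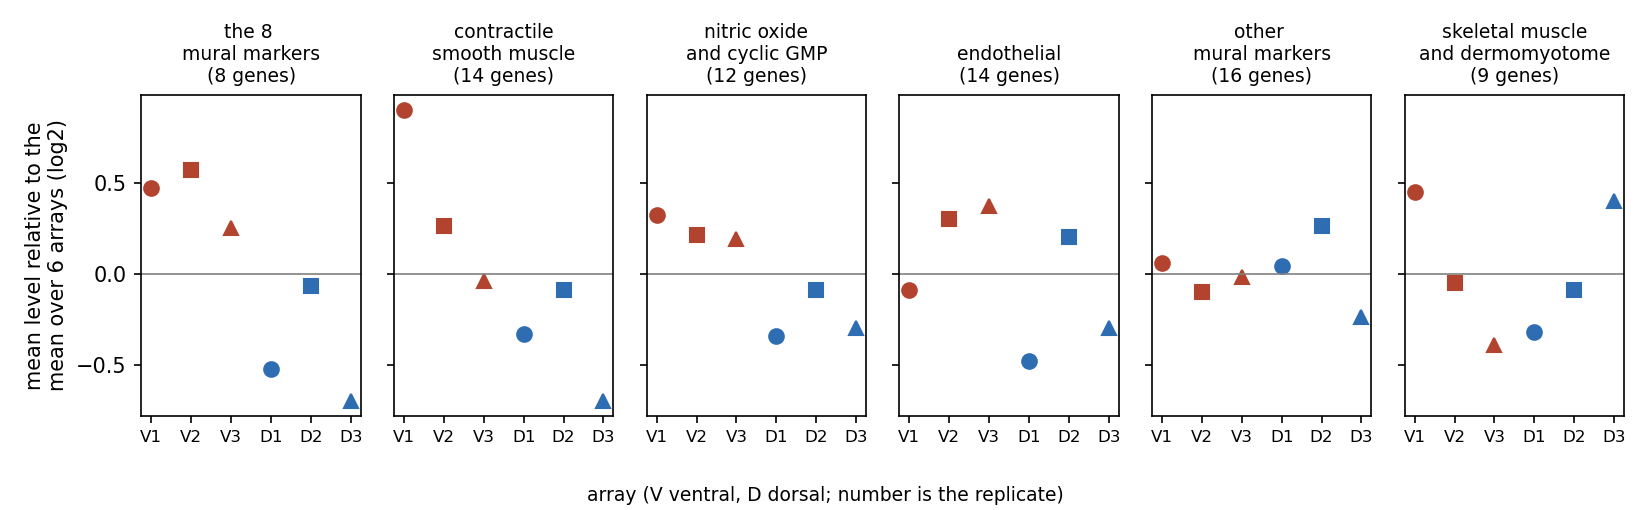
Mean level of the tested genes of each list on each array, centred on the 6-array mean of each gene (log2, y axis), for ventral (V, red) and dorsal (D, blue) replicates 1 to 3 (x axis). The 8 mural markers run from 0.25 to 0.57 on ventral and from −0.70 to −0.07 on dorsal arrays, while the other mural markers show no such split.

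The genes whose values over the 6 arrays were most like the mean of the 8 markers were sought among 2737 other tested genes with a range of at least 1 (log2). The 8 nearest by Pearson correlation had r of 0.972 to 0.984. They were Emilin1, a glycoprotein of elastic fibres, Lbh, a transcriptional cofactor, the endothelial transcription factor Sox18, Plac8, Igfbp3, an insulin-like growth factor binding protein, the membrane protein Emp3, Ifngr2, a chain of the interferon gamma receptor, and Rbpms, an RNA-binding protein of muscle cells. Of these, Plac8 (6.05, 6.13 and 5.87 on ventral and 4.30, 4.64 and 3.88 on dorsal arrays, difference 1.75 ± 0.19, limma adjusted p = 0.0258) and Rbpms (8.99, 9.29 and 8.80 on ventral and 7.52, 8.0 and 7.61 on dorsal arrays, difference 1.32 ± 0.17, adjusted p = 0.0418) passed over all genes. Plac8 did not pass without replicate 3 (0.0675), nor Rbpms without replicate 1 (0.0971), 2 (0.101) or 3 (0.0989). Dorsal arrays 1 and 3 of Plac8 were below the brightness level. Like Des, Plac8 was tested only because its ventral values lifted the mean over the arrays, so its difference gives no exact ratio. In all 8 the ventral arrays lay above the dorsal ones, so that much of the likeness is the difference between the tissues that the markers were chosen with.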

How the data were processed

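RNA in picogram amounts was amplified with a NuGEN single-primer kit and labelled with biotin for Affymetrix Gene ST arrays, per the labels' protocols, and such amplification can distort ratios between weak and strong transcripts. The deposited values are log2 levels, 1 per Entrez gene and array, made with Affymetrix Expression Console and RMA per the submitters' processing notes. Versions and the genome build were not given in the sources used here. Symbols came from the platform table (24015 of 24973 probe sets), and gene order from a RefSeq table used for names only.

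Ventral minus dorsal was fitted with limma 3.58.1 in R 4.3.3 (lmFit, eBayes) over 12028 named genes whose mean was at or above 4.52. The replicate number was a fixed block, tests were two-sided, and adjustment was by Benjamini-Hochberg at 0.05. All adjusted p and SE of differences come from limma. The median SE was 0.196, and precision is limited by 3 arrays per tissue. The block was used because, per the labels, both tissues came from the same embryos. For replicates 1, 2 and 3 the ventral and dorsal deviations from the tissue means had correlations of 0.0992, 0.0763 and 0.226, and other array pairs −0.153 to 0.0805. These correlations are small, and the labels do not say that a number marks an embryo, so pairing by number is an assumption. The labels call the arrays biological replicates, but how many embryos went into each is not given. If numbers mark no embryos, p-values measure the spread between these samples, part of which may be technical. On simulated data with 12028 genes, 8% of differences of 1 (log2) and 86% of differences of 2 were called, from 50 changed genes each. Of the unchanged genes 8 were called. The simulated arrays had independent noise with no effect shared by a replicate number, so the rates may differ for these data.

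The 8 genes and all lists were chosen with earlier results of these data known. Genes named are the 8, in each list those past the threshold and up to 4 others with the largest differences, further list genes picked for their role after their values were seen, the neighbours in gene order, and the 8 genes most like the mean of the markers. Alternatives were no block, no or a stricter brightness filter (1 log2 higher), cyclic loess, a trended robust eBayes, and leaving out each pair.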

Additional observations from a re-analysis of the deposited data

How the results depend on the processing

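The log2 differences of the 8 genes were recomputed under 8 alternatives, 61 values in all since the stricter filter leaves out Kcnj8, Cspg4 and Des, and 52 kept their direction and their side of the threshold. Rgs5 did not pass without the replicate block (2.18, adjusted p = 0.0732), without the brightness filter (2.18, 0.106) or without replicate 3 (2.05, 0.0675), and ranged from 2.00 to 2.49 over the alternatives. Pde5a did not pass without the filter (1.46, 0.0816) or without any 1 pair (1.42 to 1.53). With a pair left out Cspg4 ran from −0.01 to 0.19 and Notch3 from −0.17 to 0.11, turning sign without replicate 3, neither passing. Leaving out the block changed no call among the 8 other than that of Rgs5. The number of the 8 genes past the threshold was 2 as reported, 1 without the block, 0 without the brightness filter and 0 to 1 with a pair left out. Over all genes 62 passed (37 higher in ventral and 25 in dorsal tissue), 59 without the block, 10 without the filter (8 and 2), which tests 24015 genes, and 48 to 75 with a pair left out (22 to 54 and 18 to 26). The dorsal count was 15 with the stricter filter and 38 with a trended robust eBayes. The list genes past the threshold, the 8 markers left out, numbered 8, and 2 without the filter. The causes of these shifts were not tested. Leaving out the filter changed the number of genes adjusted for and also the SE, which for Pde5a was 0.17 with the filter and 0.14 without it. Among other lists, fibroblast calls numbered 0 to 3 over the alternatives (1 as reported). Sclerotome and cartilage calls numbered 0 to 4 (3 as reported), and visceral and gonadal mesenchyme calls 2 to 5 (4 as reported). Without the brightness filter Pax1 (limma adjusted p = 0.0756), Col2a1 (0.0816), Chad (0.0647), Hlx (0.0647) and Dcn (0.119) did not pass. Gata6 (0.0197) and Tcf21 (0.0259) still passed. Signal near background limits Des, Kcnj8, Npr1, S1pr1, Tcf21 and Plac8 in dorsal tissue, and Chad, Mylpf and Tfap2a in ventral tissue.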
